A study of Mus musculus with 4 samples.

Results

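The Cib3 and Akr1c18 patch is a set of 250 spots in the STAM20w liver section, measured with Visium, which captures the messenger RNA of tissue laid on an array of barcoded spots and counts it as unique molecular identifiers (UMIs). Its members were chosen from the measurements. For each of the 2833 kept spots of the section, those with at least 500 UMIs and 250 detected genes, the UMIs of Cib3, Akr1c18, Gsta1, Serpina12 and Serpinb6b per 10000 UMIs were averaged over the spot and the kept spots touching it, and the 250 highest spots (8.82% of the section, out of 10627 kept spots in the whole series) were taken. The reference was the other 2583 kept spots of the same section.

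The tissue came from mouse liver cancer models. STAM is described by its submitters as a metabolic model that mimics MASH, the fatty and inflamed liver disease, together with type 1 diabetes, and it gave the sections STAM20w and STAM16w. DEN+CCl4 combines a DNA-damaging and a fibrosis-promoting agent and gave the sections DEN22w and DEN30w. One fresh-frozen section stood for each label, neither strain nor sex is given, and it is not stated if the weeks in a label are age or time from treatment. The 4 sections had 20700642 to 40008457 UMIs in kept spots, and 1136 barcodes occurred in all of them, as barcodes mark array positions. Annotation of tumour tissue was not used here, so the patch carries no histological name.

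Hepatocytes differ along the liver lobule. Those around the central vein depend on Wnt signals and make glutamine synthetase and drug-metabolising cytochromes, whereas those near the portal tract make urea and glucose. Fatty acid and cholesterol synthesis in hepatocytes are driven by the SREBP transcription factors and, for fatty acids, also by ChREBP, and both are known to be active in fatty liver and in many liver tumours.

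With 1 section for each label there was no replicate of the patch, so no test was made and no p-value is given. Every value below describes summed UMIs of spots, as UMIs per 1000000 UMIs of the spot class (CPM), and intervals at 95%, exact Poisson for a level and exact binomial for a ratio or share, cover counting error only. More than 1 cell, and cells of different types, can lie over a spot. As the members were chosen for high levels of genes in these same spots, differences between the patch and the other spots are a description, and the 5 scoring genes are not results.

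The scoring genes describe how the patch was drawn. Akr1c18, which encodes a hydroxysteroid dehydrogenase that inactivates progesterone, had 64.1 CPM in the patch and 4.73 CPM in the other spots. Cib3, of the calcium and integrin binding family, had 159 CPM in the patch and 12.4 CPM elsewhere. Gsta1, a glutathione transferase, had 325 CPM against 59.4 CPM, Serpina12 had 123 CPM against 25.1 CPM, and Serpinb6b had 77.7 CPM against 19.6 CPM. Scores of members ran from 4.87 to 13.3 with a median of 7.24, against 0 to 4.87 with a median of 1.03 among the other spots. The last member scored 4.86866 and the first spot left out scored 4.86625, so the border of the set is not a gap in the score. Because the score borrows from touching spots, 19 members had no UMI of any scoring gene and 12 had all 5.

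The patch was one body of tissue with a few satellites. The members fell into 8 connected pieces, and the largest held 228 spots and 1466555 of the 1545350 UMIs of the patch. The other pieces had 12, 3, 2, 2, 1, 1 and 1 spots. Of the 1467 contacts of members with kept spots, 1260 (85.9%) were with other members. Part of this closeness is made by the averaging: with the score of each spot alone, the share of contacts within the 250 highest spots was 47.1%, and 165 spots were in both sets. In the piece of 12 spots, Gsta1 had 711 CPM while Akr1c18 had no UMI and Cib3 had 1, so that satellite was chosen through Gsta1.

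**Figure D1:**
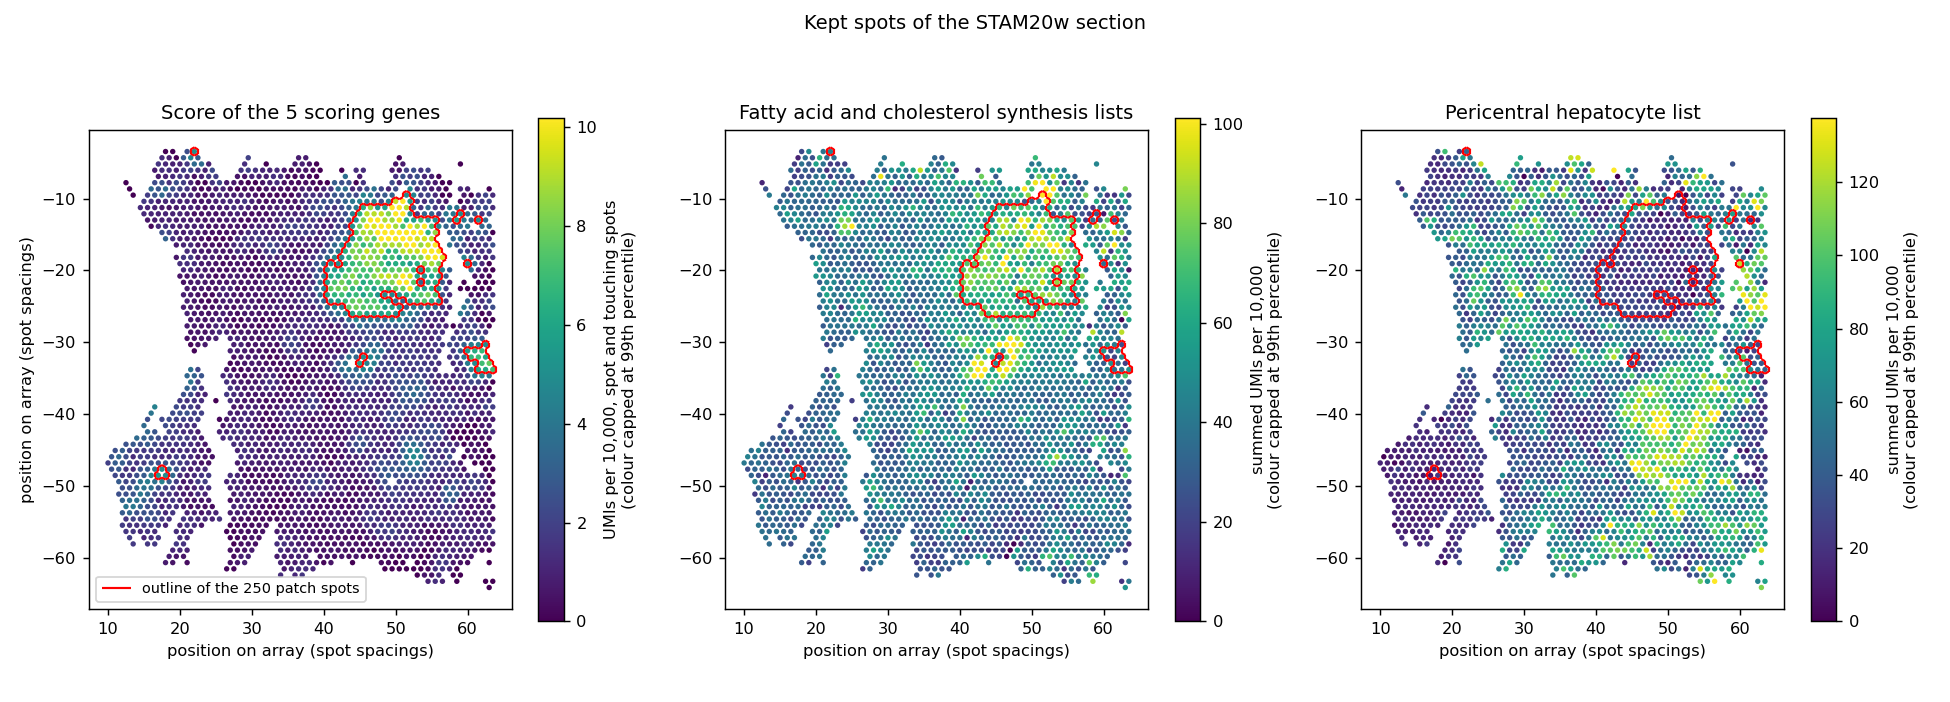
Kept spots of the STAM20w section at their array positions in units of spot spacing, coloured by the score (left), by summed UMIs per 10000 of the fatty acid and cholesterol synthesis lists (middle) and by summed UMIs per 10000 of the pericentral list (right), with the 250 patch spots outlined in red. Inside the large outline the middle panel is high and the right panel low, with patch medians of 69.2 and 24.4 UMIs per 10000.

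Depth differed between the classes. Patch spots had a median of 5414.5 UMIs and 2187 genes, against 13784 UMIs and 3637 genes in the other spots. The low depth was shared by the surroundings, with medians of 7321, 6057 and 6647 UMIs at 1, 2 and 3 steps outside the largest piece and 16114 UMIs at 11 or more steps. Mitochondrially encoded genes took 2.59% of UMIs in the patch and 3.71% elsewhere, and ribosomal protein genes 6.75% and 7.76%. For this reason each comparison was also made with 250 other spots matched to the members by UMI total, whose median was 5406 UMIs. The section also holds 3 other regions of unusual expression, each defined as the 250 spots highest for 5 genes: the Cpe and Gpx2 patch, the H19 and Afp patch and the Ankrd1 and Dcdc2a region. They shared 0, 10 and 4 spots with the members. As most of their spots lie in the reference, values without them are given where they change the picture.

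Among 5870 genes that reached 20 CPM in the higher class, the scoring genes left out, 121 (2.06%) were at least 2-fold higher in the patch and 107 (1.82%) at least 2-fold lower. The counting interval lay wholly beyond 2-fold for 58 and 44 of them. The median log2 ratio over all 5870 genes was 0.10. A gene can reach the minimum through the patch alone, where 20 CPM is few UMIs, and when 20 CPM was asked of all kept spots together, 53 genes were higher and 102 lower (5249 genes). Against the depth-matched spots, 135 genes (2.25%) were higher and 113 (1.88%) lower, and 77 of the 121 and 73 of the 107 were again past 2-fold on the same side. Without the 3 other regions the reference gave 165 higher (2.84%) and 93 lower genes (1.6%), with 113 and 73 in common with the first comparison. Against the 389 other spots 1 to 3 steps from any member, satellites included, 48 genes were higher (0.808%) and 51 lower (0.859%). Against spots 6 or more steps from any member, 146 (2.49%) were higher and 115 (1.96%) lower. The largest piece alone had 65, 63 and 61 spots at 1, 2 and 3 steps outside, so many of the 389 lay around the satellites. Of the other regions, those around Cpe and around H19 were compared with the patch: 338 genes (5.51%) were higher and 341 (5.56%) lower than in the Cpe and Gpx2 patch, and 187 (3.07%) higher and 184 (3.02%) lower than in the H19 and Afp patch, its shared spots left out.

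Most of the genes with the highest ratio rested on few UMIs, with 31 to 81 in the patch for most of the first 20. Gm14210, an uncharacterised gene at chr2:135811945-135813014 (GRCm38.p6), stood apart with 44 UMIs (28.5 CPM) in the patch and 35 UMIs (0.91 CPM) in the 2583 other spots, a ratio of 31.3 (19.6 to 50.2). It had 40.1 CPM at 3 steps inside the border, 21.5 and 17.8 CPM at 1 and 2 steps outside, and 0.75 CPM at 4 to 5 steps. The Cpe and Gpx2 patch, with 5875623 UMIs, had no UMI of it, and it had 0.24 CPM in STAM16w, 0.22 CPM in DEN22w and 0.09 CPM in DEN30w. At least 1 UMI was seen in 15.2% of members and 1.24% of other spots, and after thinning each spot to 2000 UMIs in 7.11% and 0.29% (225 members and 2398 other spots were deep enough).

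Next in order came 5330417C22Rik at 6.82 times, Cyp2b10 at 6.03 times, Gprc5b at 5.82 times, Asns at 5.72 times and Rpp40 at 5.57 times the level of the other spots. Cyp2b10, a cytochrome induced through the nuclear receptor CAR, had 35.6 CPM in the patch, 5.90 CPM in the other spots, and 12.9 CPM in the depth-matched ones. Its relatives on the CAR and PXR list did not share the difference, with 1 of 11 members past 2-fold and a median log2 ratio of -0.24. Asns, the asparagine synthetase and a target of the stress factor ATF4, had 38.8 CPM against 6.79 CPM. On the integrated stress response list Asns was the sole member past 2-fold higher among 9 at the minimum, while 3 were lower, among them Nupr1 with 67.3 CPM against 221 CPM. The values of Nupr1 depend on the Cpe and Gpx2 patch, where it had 804 CPM; without the 3 regions the other spots had 74.5 CPM. Rpp40, a subunit of ribonuclease P, had 41.4 CPM against 7.44 CPM.

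Others of the 20 highest were Prelid2, Ubd, Gm32063, Gm5420, Rasl10b, B4galt6, Spink1, 1700048O20Rik, Sucnr1, Mmd2, 4732419C18Rik, Hsf2bp and Apoc2, at 3.30 to 5.36 times the level of the other spots. Ubd, a ubiquitin-like modifier, had 42.1 CPM in the patch and 8.68 CPM elsewhere, and Sucnr1, the succinate receptor, 21.4 CPM and 6.08 CPM. All were picked for their ratio, and most reached the minimum through the patch alone.

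Apoc2 rested on far more. This apolipoprotein, the cofactor of lipoprotein lipase, had 11009 UMIs in the patch, or 7124 CPM against 2156 CPM in the other spots, a ratio of 3.30 (3.24 to 3.37). It had 8777 CPM deep inside the largest piece, 6134 CPM at its rim, 4440 CPM at 1 step outside, 2241 CPM at 3 steps and 1763 CPM at 4 to 5 steps. The H19 and Afp patch was the nearest in level with 4434 CPM, and the Cpe and Gpx2 patch had 1742 CPM. Summed over the other sections it was lower than in the patch, at 1346 CPM in STAM16w, 1502 CPM in DEN22w and 1181 CPM in DEN30w. The difference was not one of apolipoproteins at large: Apoc2 was the 1 gene past 2-fold among 13 on the list, with a list median log2 ratio of 0.03, and Apoe had 17801 CPM in the patch and 17844 CPM elsewhere.

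**Figure D2:**
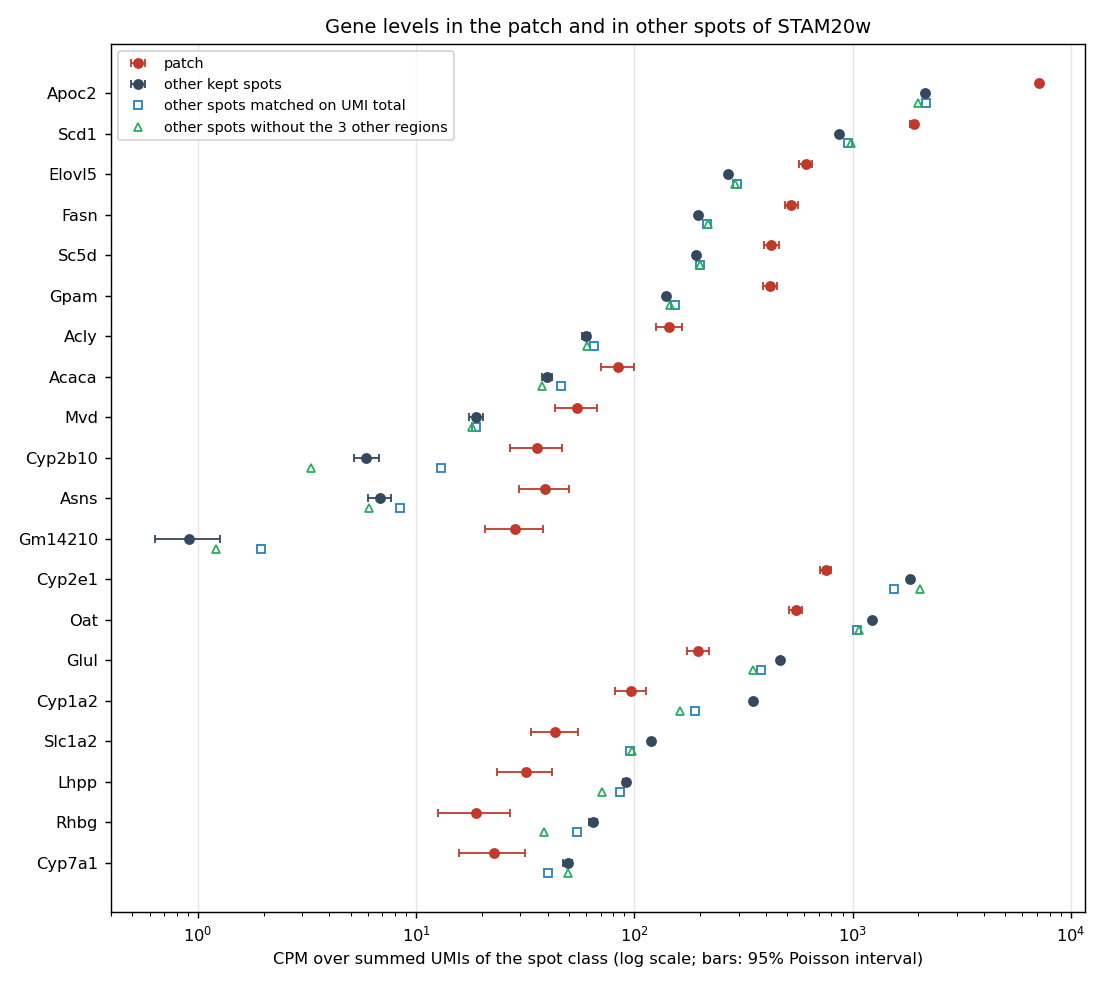
Levels of 20 genes in CPM on a log axis, in the patch (red) and the other kept spots (dark), with 95% Poisson intervals, and in depth-matched spots (blue squares) and other spots without the 3 other regions (green triangles). Fasn had 524 CPM in the patch and 196 CPM in the other spots, and Cyp2e1 had 753 CPM and 1839 CPM.

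Genes of fatty acid synthesis formed the list with the highest median log2 ratio apart from the erythroid markers. Of its 16 members, all at the minimum, 7 were at least 2-fold higher and none 2-fold lower, and the median log2 ratio was 0.73. Summed, the list took 4790 CPM in the patch and 2491 CPM in the other spots, a ratio of 1.92 (1.88 to 1.97). Gpam, which adds the first acyl chain to glycerol phosphate, had 418 CPM against 140 CPM (2.99 times). Fasn, the fatty acid synthase, had 524 CPM against 196 CPM (2.67 times), and 215 CPM in the depth-matched spots. At least 1 Fasn UMI was found in 63.1% of members and 31.7% of other spots after thinning to 2000 UMIs.

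The steps before and after the synthase were also higher. Acly, which makes cytosolic acetyl-CoA from citrate, had 144 CPM in the patch and 60.1 CPM elsewhere, and Acaca, the carboxylase that commits it to fatty acids, had 84.1 CPM and 39.8 CPM. The desaturase Scd1 had 1904 CPM against 865 CPM, its relative Scd2 had 64.7 CPM against 21.9 CPM, and the elongase Elovl5 had 609 CPM against 269 CPM. Of the regulators, Srebf1 had 137 CPM in the patch and 85.7 CPM elsewhere (1.60 times). Mlxipl, which encodes ChREBP, was close to the rest of the section with 88.0 CPM and 83.3 CPM (1.06 times). Of the 16 members 14 lay above 1 and 2 below. Those below were Pklr, with 29.1 CPM against 41.7 CPM, and Thrsp, with 299.6 CPM against 311.5 CPM. Against the 389 spots 1 to 3 steps away, 2 of the 16 genes were 2-fold higher and the median log2 ratio was 0.50.

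Genes of cholesterol synthesis and uptake were higher as well. Of 21 listed genes, 20 reached the minimum, 6 were at least 2-fold higher and none 2-fold lower, with a median log2 ratio of 0.70 and summed levels of 2166 CPM against 1394 CPM (1.55 times, with an interval reaching 1.61). Among enzymes, Mvd of the mevalonate steps had 54.4 CPM against 18.8 CPM, and the late enzymes Nsdhl, Sc5d and Dhcr7 were at 2.29, 2.22 and 2.06 times. Sqle, which makes squalene epoxide, was just past the limit at 2.01 times (1.64 to 2.45). Hmgcs1, at the head of the pathway, was at 1.68 times, and Cyp51, Msmo1 and Srebf2 were at 1.05, 0.99 and 0.92 times. None of the 20 was 2-fold higher than in the spots 1 to 3 steps away, and the median log2 ratio there was 0.32.

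Spot by spot, both synthesis lists together took a median of 69.2 UMIs per 10000 in the patch, with a range of 18.6 to 134. The medians were 37.1 in the other spots and 38.6 in the depth-matched spots, with ranges of 0 to 138 and 12.3 to 138. The ranges overlapped, but 94% of the members lay above the median of the other spots. These levels are high for this section and not for the series: the fatty acid list summed to 7654 CPM over DEN22w and 7503 CPM over DEN30w, both above the 4790 CPM of the patch, and to 1547 CPM over STAM16w. Fasn alone had 734 CPM in DEN22w, 361 CPM in DEN30w and 149 CPM in STAM16w.

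The promoters of these genes were searched because SREBP acts through short sites near the start of its target genes, usually beside sites of the factor NF-Y. RefSeq sequences of GRCm38.p6, running from 250 bases before to 50 after the start, were found for 14 of 16 fatty acid and 13 of 21 cholesterol genes. Only the first start listed for a gene was used. Other starts of the same gene were not searched, so a window without a match does not speak for the whole gene. CCAAT on either strand, the core of an NF-Y site, was present in 9 of the 14 (64.3%) and 12 of the 13 (92.3%), against 39.6% of 4712 promoters of genes at the minimum and 37.9% of all 27025 promoters. The sterol regulatory element TCACNCCAC was found in 1 promoter of each list, Mlxipl and Hmgcs1, and in 1.22% of all promoters. CACGTG, a form of the E-box, was in 2 promoters of each list and in 7.24% of all, and TGACNNNGC, the antioxidant response element, in 2 and 1 and in 12.5% of all. A match is a description of letters and not evidence of a site. The promoters of 3 cholesterol genes and of Fasn are shown, with matches to CCAAT or its reverse complement in capitals, and in Hmgcs1 also the match to TCACNCCAC; in Fasn a pair of matches overlaps.
Mvd, chr8:122443373-122443672, - strand: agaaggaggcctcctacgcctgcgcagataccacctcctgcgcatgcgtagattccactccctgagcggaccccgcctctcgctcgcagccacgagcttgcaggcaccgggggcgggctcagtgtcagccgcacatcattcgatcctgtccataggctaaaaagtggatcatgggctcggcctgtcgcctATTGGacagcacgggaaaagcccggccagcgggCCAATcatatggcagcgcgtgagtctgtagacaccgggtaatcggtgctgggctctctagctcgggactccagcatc
Nsdhl, chrX:72918271-72918570, + strand: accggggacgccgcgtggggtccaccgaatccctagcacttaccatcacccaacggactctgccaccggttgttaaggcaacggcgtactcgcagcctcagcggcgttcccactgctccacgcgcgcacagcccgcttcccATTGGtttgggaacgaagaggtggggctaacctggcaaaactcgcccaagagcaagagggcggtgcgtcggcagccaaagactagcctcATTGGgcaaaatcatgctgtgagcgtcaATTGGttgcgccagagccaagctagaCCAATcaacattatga
Hmgcs1, chr13:119690101-119690400, + strand: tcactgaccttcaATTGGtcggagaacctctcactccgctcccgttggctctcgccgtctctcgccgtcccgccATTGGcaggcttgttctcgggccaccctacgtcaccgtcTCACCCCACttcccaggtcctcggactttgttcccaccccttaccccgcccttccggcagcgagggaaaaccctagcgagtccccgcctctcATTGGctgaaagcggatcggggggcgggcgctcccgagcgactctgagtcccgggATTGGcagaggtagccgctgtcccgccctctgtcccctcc
Fasn, chr11:120824498-120824797, - strand: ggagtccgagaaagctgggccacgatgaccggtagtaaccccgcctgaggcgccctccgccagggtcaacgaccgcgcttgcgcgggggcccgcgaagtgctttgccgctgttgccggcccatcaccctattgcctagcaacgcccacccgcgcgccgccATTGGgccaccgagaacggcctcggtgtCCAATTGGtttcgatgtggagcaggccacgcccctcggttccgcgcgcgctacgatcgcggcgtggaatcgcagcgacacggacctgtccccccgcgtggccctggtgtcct
Mvd, Nsdhl, Hmgcs1 and Fasn carried 2, 4, 4 and 3 matches to CCAAT, and their ratios between the patch and the other spots were 2.90, 2.29, 1.68 and 2.67. Acaca and Dhcr7, at 2.11 and 2.06 times, had no match in this window, and Gpam, at 2.99 times, had 1. Matches were also present in genes that were not higher in the patch. Msmo1, Thrsp and Idi1 carried 3, 2 and 2 at 0.99, 0.96 and 1.09 times, and Cyp51 and Srebf2 carried 1 each at 1.05 and 0.92 times.

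Other lipid genes gave mixed values. Fabp5, a fatty acid binding protein, had 758 CPM in the patch against 238 CPM, and 132 CPM without the 3 regions; it is one of the genes that define the H19 and Afp patch, where it had 1303 CPM. The lipid droplet list had 15 members at the minimum and a median log2 ratio of 0.03, and its main gene Plin2 had 2081 CPM against 1719 CPM. Fatty acid oxidation, a list of PPAR alpha targets, had 25 members at the minimum with none 2-fold higher, 3 lower and a median of -0.21. The 3 were Acot1 with 117 CPM against 314 CPM, Fgf21, a hormone of fasting, with 40.1 CPM against 106 CPM, and Cyp4a31.

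Pericentral hepatocyte genes were the list with the most members 2-fold lower. Of 15 at the minimum, 12 were at least 2-fold lower and none higher, all 15 lay below 1, and the median log2 ratio was -1.18. Summed, they took 2729 CPM in the patch and 5907 CPM in the other spots, a ratio of 0.46 (0.45 to 0.48). Glul, the glutamine synthetase, had 195 CPM against 464 CPM. Cyp2e1, the ethanol-metabolising cytochrome, had 753 CPM against 1839 CPM, and Oat, ornithine aminotransferase, 548 CPM against 1224 CPM. Cyp1a2 had 96.4 CPM against 348 CPM, the glutamate transporter Slc1a2 43.4 CPM against 119 CPM, and the ammonium transporter Rhbg 18.8 CPM against 64.5 CPM. Lgr5, a receptor of Wnt-responsive cells, had 0 UMIs in the patch, where 3 UMIs would be 1.94 CPM, against 3.59 CPM.

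The size of this difference depended on the reference. The Cpe and Gpx2 patch had high pericentral levels, 10513 CPM summed, and without it and the other regions 6 of the 15 genes were 2-fold lower, all 15 were still below 1 and the median was -0.96. Glul was then at 0.56 times and Cyp1a2 at 0.60 times, whereas Cyp2e1 was at 0.37 times. In the depth-matched comparison 5 of 15 were 2-fold lower, with a median of -0.93. The H19 and Afp patch was lower still, with 1740 CPM summed. By spot, the pericentral list had a median of 24.4 UMIs per 10000 in the patch, 49.5 in the other spots and 46.9 in the depth-matched spots, and 7.6% of members lay above the median of the other spots.

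Periportal genes were not the mirror image. Of 16 at the minimum 1 was higher and 1 lower, 12 lay below 1, and the summed level was 8324 CPM against 8693 CPM. The Cpe and Gpx2 patch, with 2897 CPM, lowered that reference. Without the 3 other regions the other spots had 10204 CPM, and the patch was at 0.82 times. Aldh1b1, a mitochondrial aldehyde dehydrogenase, had 342 CPM against 145 CPM, and Sds, the serine dehydratase, 131 CPM against 289 CPM. The urea cycle enzymes Cps1 and Ass1 had 1279 CPM against 1631 CPM and 781 CPM against 903 CPM. Summed, the urea cycle and amino acid list was at 0.81 times the other spots, or 0.69 times without the 3 regions. Wnt feedback and target genes, 3 at the minimum, had a median of -1.18, with Tbx3 at 10.4 CPM against 23.5 CPM and Nkd1 at 4.53 CPM against 31.4 CPM, the last of which is a gene that defines the Cpe and Gpx2 patch. Summed, the Wnt list was at 0.45 times the other spots but at 0.72 times without the 3 regions, where Tbx3 had 17.6 CPM in the reference and was at 0.59 times.

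**Figure D3:**
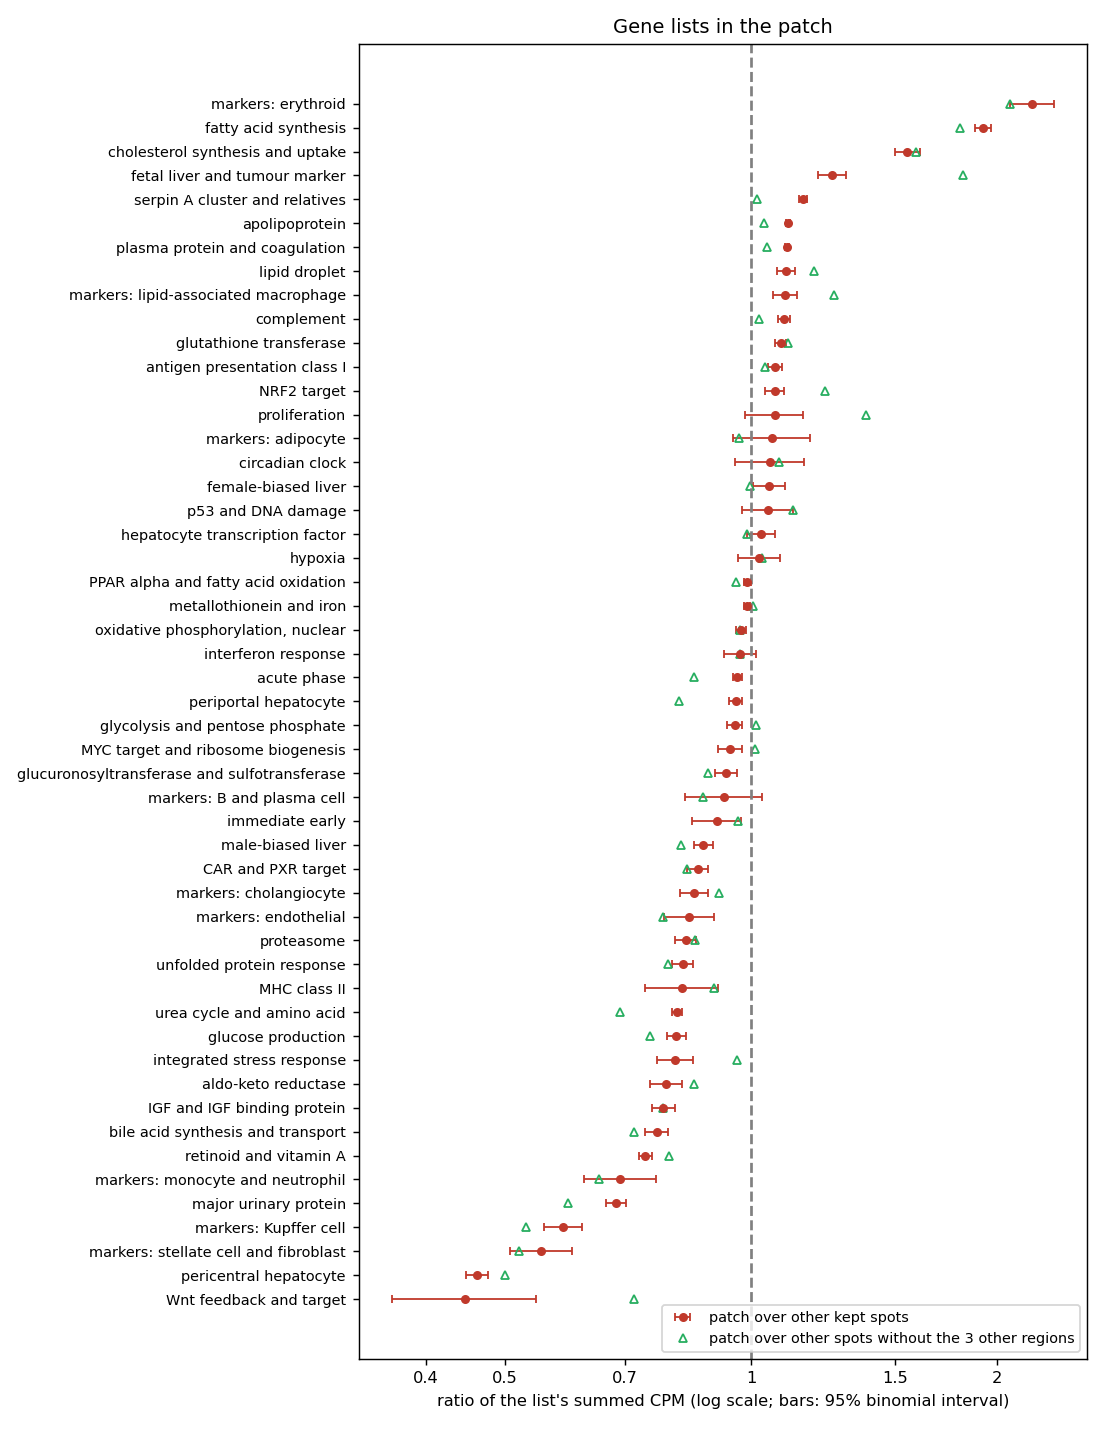
Ratio of the summed CPM of each of the 51 gene lists with a member at the minimum, in the patch to that in the other kept spots (red, with 95% binomial intervals) and to that in other spots without the 3 other regions (green), on a log axis. In red, erythroid markers at 2.21 and fatty acid synthesis at 1.92 stand at the top, and pericentral genes at 0.46 and the Wnt feedback list at 0.45 at the bottom of the lists drawn. In green, the fetal liver and tumour marker list is at 1.82 and fatty acid synthesis at 1.80.

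Other products of mature hepatocytes differed by group. Major urinary proteins, pheromone carriers made by the liver under growth hormone, had 10 genes at the minimum, 7 of them 2-fold lower, and a median log2 ratio of -1.11. Mup17 had 298 CPM against 767 CPM, while Mup20 had 1871 CPM against 1833 CPM; these genes are near copies and counts may be divided unevenly among them. Bile acid genes had 17 at the minimum, 4 lower and none higher, with a median of -0.43. Cyp7a1, the rate-limiting enzyme of bile acid synthesis, had 22.7 CPM against 49.4 CPM, Cyp8b1 107 CPM against 224 CPM, and the uptake transporter Slco1b2 199 CPM against 495 CPM. Low levels of both groups were not particular to the patch. Its median log2 ratio to the Cpe and Gpx2 patch was 0.26 for Mup genes and 0.18 for bile acid genes. To the H19 and Afp patch it was 1.07 and 0.33. Summed, Mup genes had 3281 CPM in the patch, 3676 CPM in the Cpe and Gpx2 patch and 1550 CPM in the H19 and Afp patch. Plasma proteins were near the rest: Alb had 29481 CPM against 23060 CPM, and 1 of 23 listed genes, the coagulation factor F11, was past 2-fold with 22.6 CPM against 7.54 CPM.

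Acute phase genes split. Saa1 and Saa2, the serum amyloids, had 617 CPM against 1482 CPM and 235 CPM against 631 CPM, and Saa3 had 11.6 CPM against 29.4 CPM. Apcs, serum amyloid P, had 216 CPM against 99.97 CPM, and Orm1 had 3070 CPM against 2221 CPM. On the NRF2 list Gclc, the catalytic subunit of glutathione synthesis, was 2-fold higher with 320 CPM against 151 CPM, while Slc7a11, Gpx2 and Abcc4 were lower. Those last were high in the Cpe and Gpx2 patch, with 101, 99.7 and 197 CPM, and Slc7a11 and Gpx2 define it. Over the 51 lists with a member at the minimum, 3 medians were at or above 0.5 and 6 at or below -0.5.

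The 15 genes with the lowest ratio were Slc7a11, Ighg2b, Nkd1, Cpe, Vmn2r3, Sdcbp2, Meg3, Areg, Gpx2, Fabp3, Ccn2, BC049987, Maoa, Cyp1a2 and Gm2788. Without the 3 other regions 10 of them were at least 2-fold lower and all 15 remained below the other spots. Those that were no longer 2-fold lower were Cpe, Meg3, Gpx2, Maoa and Cyp1a2. Areg, a ligand of the EGF receptor, had 5.82 CPM in the patch and 15.2 CPM in that reference, and Ccn2, a secreted matrix protein, 5.18 CPM and 18.6 CPM. Fabp3, another fatty acid binding protein, had 16.2 CPM and 68.0 CPM. Afp, the fetal liver protein, had 16.8 CPM against 55.9 CPM in all other spots but 12.5 CPM without the 3 regions, so its direction turned with the reference. The fetal liver and tumour marker list also depended on the reference. Summed, it was at 1.26 times all other spots and at 1.82 times without the 3 regions. Against all other spots, 3 of its 7 members at the minimum lay above 1 and 4 below. Its median log2 ratio ran from -0.90 to 0.96 over the settings tried.

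Markers of other cell types also differed between the classes, and their part in the results was not tested; fewer cells of a type and less RNA per cell cannot be told apart. Kupffer cell markers summed to 870 CPM in the patch and 1478 CPM in the other spots, and all 12 at the minimum were below 1, 3 of them 2-fold: Cd5l, Folr2 and Adgre1. Clec4f, a defining Kupffer gene, had 109 CPM against 217 CPM. Summed, the Kupffer markers had 1029 CPM in the Cpe and Gpx2 patch and 930 CPM in the H19 and Afp patch. Their low level was therefore not particular to this patch. Stellate cell and fibroblast markers summed to 345 CPM against 623 CPM, with Dcn at 84.8 CPM against 224 CPM and Lum at 14.9 CPM against 30.1 CPM. Markers of lipid-associated macrophages summed to 2344 CPM against 2129 CPM, with Gpnmb at 9.06 CPM against 26.2 CPM. In that list 4 of 11 members at the minimum were above 1 and 7 below, with a median log2 ratio of -0.41. Fabp5 was past 2-fold, and its difference in CPM was larger than that of the whole sum.

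Haemoglobin genes were higher, with Hba-a1, Hba-a2 and Hbb-bs at 2.42, 2.93 and 1.94 times, and the erythroid list summed to 698 CPM against 316 CPM. In the depth-matched spots that list had 606 CPM, and the erythroid gene Slc4a1 had 0 UMIs in the patch. Endothelial markers summed to 514 CPM against 613 CPM and cholangiocyte markers to 1777 CPM against 2087 CPM, of which Clu took 1620 CPM and 1844 CPM. The defining duct genes Krt19 and Epcam had 1 UMI each in the patch. T and NK cell markers summed to 7.77 CPM against 10.6 CPM, with Cd3d, Cd4 and Foxp3 among 6 of 14 at 0, and no T cell or mesothelial marker reached the minimum. Igkc and Ighg2b, immunoglobulin chains of plasma cells, were 2-fold lower, but Igkc was higher in the patch than in the depth-matched spots, with 19.4 CPM and 12.9 CPM. Of 4 proliferation genes at the minimum none was past 2-fold, and the list summed to 395 CPM against 370 CPM, or 286 CPM without the 3 regions.

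The profile across the border was gradual. In the largest piece the fatty acid list summed to 5222, 5130, 4692 and 4814 CPM from 4 or more steps inside to the rim. Outside, it had 4146, 3675 and 3486 CPM at 1, 2 and 3 steps, 3345 CPM at 4 to 5, 3035 CPM at 6 to 10 and 2352 CPM at 11 or more steps. Pericentral genes ran the other way, with 2087 CPM deepest inside, 3244 CPM at the rim, 3886 CPM at 1 step outside and 6544 CPM at 11 or more. Kupffer cell markers went with them, with 605 CPM deepest inside, 1034 CPM at the rim, 1835 CPM at 6 to 10 steps and 1499 CPM at 11 or more. Stellate cell markers were flat inside, at 298 to 339 CPM, had 333 CPM at 1 step outside and 495 CPM at 2 steps. Saa2 had 376 CPM at 1 step outside and 1899 CPM at 4 to 5 steps, which made it one of the 5 genes with the steepest change outside the border, with Gm14210, Rab3gap2, Spon2 and Msl3. Spon2, a matrix protein, had 30.1 CPM at 1 step and 4.53 CPM at 4 to 5 steps, from 14 and 6 UMIs, and Rab3gap2 and Msl3 rested on 1 and 2 UMIs at 1 step.

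**Figure D4:**
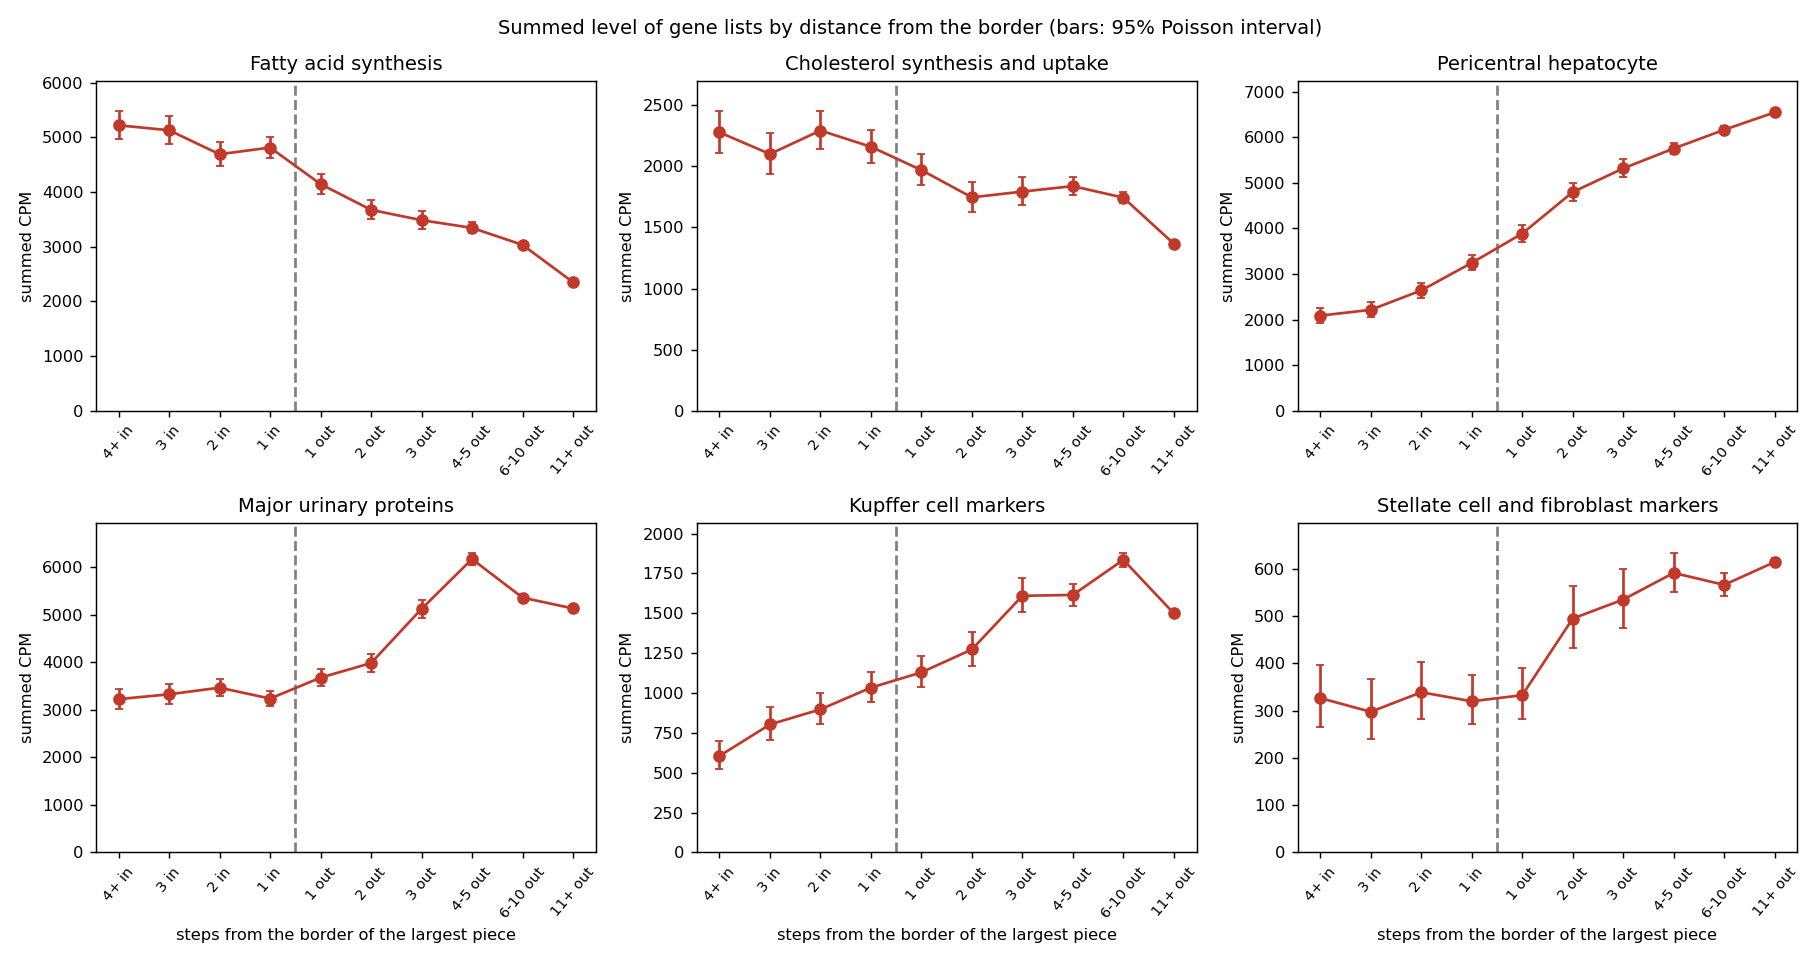
Summed CPM of 6 gene lists by steps from the border of the largest piece, from 4 or more steps inside (left) to 11 or more outside (right), with 95% Poisson intervals and the border as a dashed line. The fatty acid list has 5222 CPM at the left end and 2352 CPM at the right end, and the pericentral list has 2087 CPM and 6544 CPM.

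Within the patch most genes varied about as much as counting predicts. The variance of a gene's UMIs over members, divided by what its share and the depth of each spot give, had a median of 1.04 over 5635 genes. For a gene of few UMIs per spot this measure stays near 1, so it cannot show that the patch was even. The scoring genes had values of 1.09 to 1.41. The 10 most variable were mt-Co3, mt-Nd2, mt-Co1, mt-Atp6, mt-Co2, H19, Hbb-bs, Saa2, Hba-a1 and Spp1. The mitochondrial genes led with values of 12.5 to 18.7, and the share of mitochondrial UMIs was 3.19% deepest inside and 2.22% at the rim. H19, the imprinted fetal RNA, was found in 4% of members, with 24 of its 36 UMIs in 1 spot.

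No chromosome stood out. Median log2 ratios by chromosome ran from 0.03 on X to 0.15 on chromosome 17, around 0.10 over all genes. In the same section the range was 0.08 to 0.21 for the Cpe and Gpx2 patch and 0.06 to 0.49 for the H19 and Afp patch, whose highest was chromosome 19.

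The 5 genes and the score limit were chosen in STAM20w, so scores in the other sections describe the rule and are no result. At or above the score of the last member lay 10 of 2080 spots in STAM16w (0.48%, 0.23 to 0.88%), 1 of 2746 in DEN22w and 0 of 2968 in DEN30w, which allows a share of up to 0.124%. Single scoring genes were not rare there: Serpina12 had 75.9 CPM over STAM16w and 113 CPM over DEN22w, against 28.9 CPM over all of STAM20w. Akr1c18 had 4.54, 0.49 and 2.29 CPM in STAM16w, DEN22w and DEN30w, and 7.02 CPM in STAM20w. When the 250 highest spots of each of those sections were set against the rest of their section, 7, 3 and 15 genes (0.135%, 0.0531% and 0.243%) were at least 2-fold higher and 2, 2 and 2 (0.0386%, 0.0354% and 0.0324%) lower. Of the genes higher in the patch, 50, 69 and 75 could be compared there, and 2, 1 and 0 of them were 2-fold higher. In DEN30w 2 of the 75 were 2-fold lower. Of the genes lower in the patch, 69, 50 and 63 could be compared, and 2, 0 and 0 were 2-fold lower. No gene of the fatty acid, cholesterol or pericentral lists was past 2-fold in these comparisons. Median log2 ratios in STAM16w, DEN22w and DEN30w were 0.10, -0.04 and 0.01 for fatty acid synthesis and 0.09, -0.05 and 0.13 for cholesterol synthesis. For pericentral genes they were -0.44, -0.22 and 0.07.

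In STAM16w, 9 of the 10 spots touched each other, and they give the same measures in a section that did not enter the choice of the patch, although the same 5 genes picked these spots. They had 88951 UMIs in all and a median of 8772 per spot. Akr1c18, Gsta1 and Serpina12 brought them over the score, at 18.6, 7.25 and 4.51 times the other spots of STAM16w, and Cib3 and Serpinb6b had 0 UMIs. Fasn had 73 UMIs there, or 821 CPM against 146 CPM (5.63 times, 4.40 to 7.10). Apoc2 had 4081 CPM against 1334 CPM (3.06 times, 2.75 to 3.39), Acly was at 3.08 times (1.79 to 4.95) and Scd1 at 2.91 times (1.80 to 4.47). Glul was at 0.39 times (0.24 to 0.61) and Cyp2e1 at 0.48 times (0.39 to 0.58). Gpam, the fatty acid gene with the highest ratio in the patch, was at 1.67 times (0.99 to 2.65). As lists, fatty acid synthesis was at 2.18 times, cholesterol synthesis at 1.52 times and pericentral genes at 0.51 times, near their ratios in the patch. Other lists were not near them. Periportal genes were at 0.71 times in the 9 spots. In the patch they were at 0.96 times, or at 0.82 times without the 3 other regions. Erythroid markers were at 0.41 and 2.21 times, and stellate cell and fibroblast markers at 1.04 and 0.55 times. Genes of female-biased expression were at 9.62 and 1.05 times. That list had 244 UMIs in the 9 spots, where Cyp2a4, described below, alone had 218.

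Single genes gave a mixed picture in these 9 spots. Of 1589 genes that reached 100 CPM in either class, 118 (7.43%) were at least 2-fold higher in the 9 spots and 77 (4.85%) lower. As 100 CPM is 9 UMIs there, a gene can enter through the 9 spots alone. Among these genes 23 were higher in the patch, of which 20 lay above 1 in the 9 spots and 12 were 2-fold higher. Another 40 were lower in the patch, of which 35 lay below 1 and 11 were 2-fold lower. Median log2 ratios of these sets were 1.08 and -0.67, against 0.07 over all 1589 genes. Fabp5, at 3.18 times in the patch, was at 7.16 times in the 9 spots from 29 UMIs. Scd2 was at 13.9 times from 9 UMIs, and it entered through the 9 spots. Tstd1, Cyp2a4 and Afp are named after their values were seen. Tstd1 was at 9.71 times. Cyp2a4, a steroid hydroxylase which has a near-identical neighbour, was not shared. It had 2451 CPM against 159 CPM in STAM16w and 357 CPM against 374 CPM in the patch comparison. Afp had 16 UMIs at 14.9 times (8.41 to 24.8) in the 9 spots. In the patch its side depended on the reference, with a log2 ratio of -1.73 against all other spots and 0.43 without the 3 other regions. Hbb-bs had 1 UMI in the 9 spots, 0.08 times the rest of STAM16w (0.0021 to 0.46). Of the 20 genes highest in the patch, 11 had 0 UMIs in the 9 spots, where 3 UMIs would be 33.7 CPM, among them Gm14210, Cyp2b10, Prelid2 and Ubd. For Rpp40, with 0 UMIs against 14.9 CPM in the other spots of STAM16w, the upper bound of the ratio was 2.80, below its 5.57 times in the patch.

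**Figure D5:**
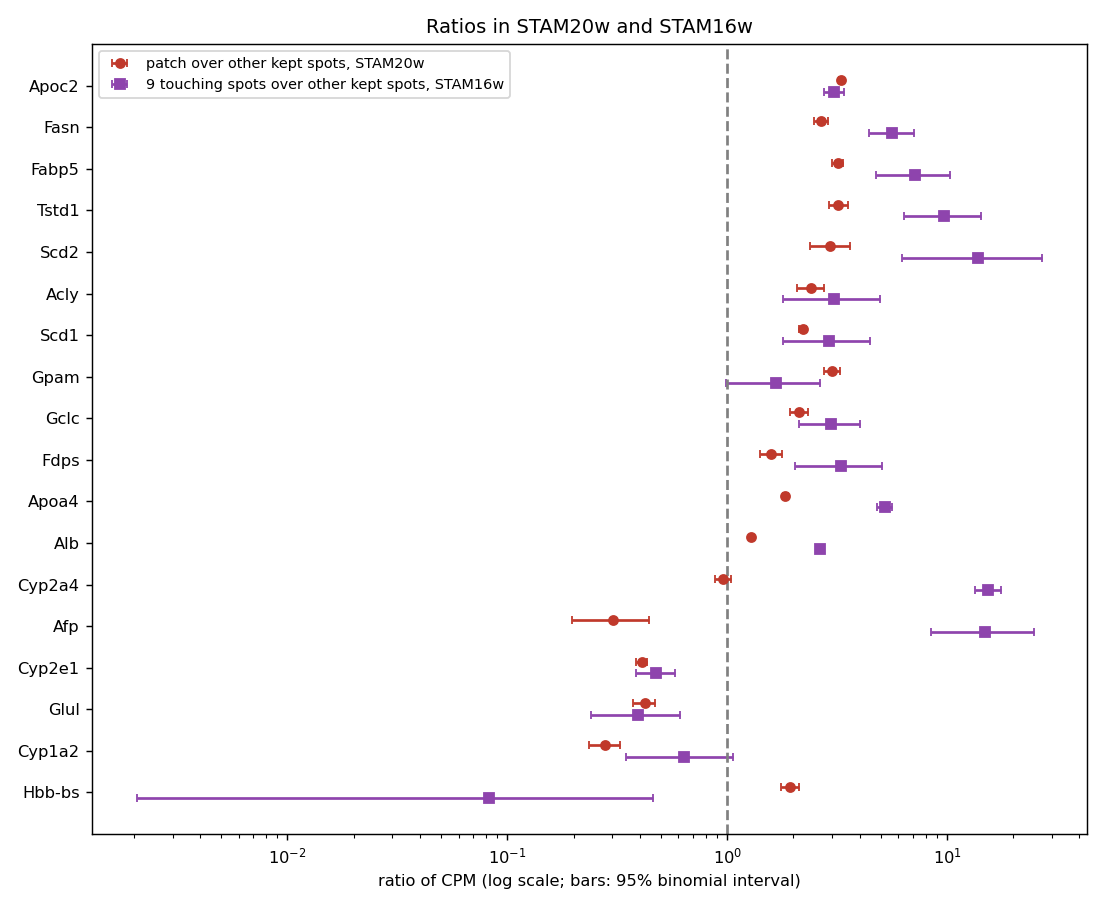
Ratios of CPM on a log axis, with 95% binomial intervals, for the patch over the other spots of STAM20w (red) and for 9 touching spots over the other spots of STAM16w (purple). Lipid genes such as Fasn (2.67 and 5.63) are above 1 and Glul (0.42 and 0.39) is below 1 in both. Afp (0.30 and 14.9) is on opposite sides as drawn, but without the 3 other regions its log2 ratio in the patch was 0.43.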

How the data were processed

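The deposited files are raw UMI counts per gene and spot, made by the authors with Space Ranger 1.3.1 and STAR against mm10, per the submitters' processing notes; settings of the aligner are not given in the sources used here. They cover 32285 genes in 4 sections with 1 section for each label. Spots over tissue with at least 500 UMIs and 250 genes were kept. Doublets were not called, since a spot is a region and not a cell. The members, the 53 gene lists and the comparisons were chosen with earlier results of these data known.

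UMIs were summed by class and given per 1000000 UMIs (CPM), with gene symbols as in the files; a gene entered with 20 CPM or more in the higher class, and a difference of 2-fold was counted. Depth-matched spots are other spots paired to members by UMI total. Steps count spots from the border of the largest piece. Levels carry exact Poisson intervals and ratios exact binomial ones at 95%, covering counting error only, and a count of 0 was read against 3 UMIs. No test was made. The named genes are the 20 highest and 15 lowest ratios, up to 4 members of a list past 2-fold and 3 others by level, the 10 most variable in the patch, the 5 steepest outside the border and cell type markers; further list members were named with their values known. Copies of a gene family, such as Mup, Saa, Cyp2a, haemoglobin and immunoglobulin genes, are uncertain as single genes. Promoters came from RefSeq (GRCm38.p6). Python 3.11.15, numpy 2.4.6, scipy 1.17.1, pandas 2.3.3 and matplotlib 3.10.9 were used, and the scripts were tested on simulated data. Values of a few genes are not reported here.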

Additional observations from a re-analysis of the deposited data

How the results depend on the processing

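Genes at least 2-fold higher numbered 121; they were 50 at 50 CPM or more, 408 at 5 CPM or more, 5815 with no minimum, 67 with the score of the spot alone and 48 against spots 1 to 3 steps away. With 20 CPM asked over all kept spots together, an alternative chosen after seeing the data, they were 53. Genes at least 2-fold lower numbered 107; they were 55 at 50 CPM, 291 at 5 CPM, 681 with no minimum, 70 with 300 spots, 27 with the spot alone and 51 against spots 1 to 3 steps away. Centring on the median gave 89 and 131. The count of chromosomes whose median lay more than 0.1 from that of all genes was 0, and 1 with no minimum and 1 against spots 1 to 3 steps away. The 11 spots of other sections at or above the last member's score were 7 with 200 spots, 26 with 300, 125 with the spot alone, 22 without Cib3, 58 without Gsta1, 4 without Serpina12 and 19 without Serpinb6b. The share of contacts within the set, 85.9%, was 47.1% with the spot alone, 83.9% without Cib3 and 79.7% without Gsta1. The median log2 ratio of the B and plasma cell list, -1.03, was 0.26 at 50 CPM, 0.36 with no minimum, 0.11 against spots 1 to 3 steps away and 0.16 against depth-matched spots. Igkc, at -1.03, was 0.37 and 0.58 in the last pair of comparisons, and Afp, at -1.73, was 0.43 without the 3 other regions. The cause was not tested. Over 22 settings the fatty acid list median was 0.50 to 0.93, the cholesterol list 0.32 to 0.77 and the pericentral list -1.49 to -0.69. No paired analysis was possible because each label has 1 section. The shallow patch, 1545350 UMIs in all, limits genes of few UMIs.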

Other observations

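Slc10a2, the sodium-dependent bile acid transporter of the ileum and bile ducts, was named after its values were seen and stayed under the minimum of 20 CPM. It had 15 UMIs in the patch (9.71 CPM) and 29 UMIs in the other kept spots (0.75 CPM), a ratio of 12.9 (6.41 to 24.8).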
